A study of Mus musculus with 3 samples.

Results

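The 53 genes described here run the cell division cycle and DNA replication. They were grouped together by known role, and no measured value enters the rule: cyclins, cyclin-dependent kinases (CDKs) and their inhibitors, E2F factors and pocket proteins, replication proteins, and mitotic kinases and checkpoint proteins. The genes were, however, chosen with earlier results of these data known. Every one of the 53 had a probe, among 28578 gene names with a value on all arrays, and all 53 were among the 21653 names that could be compared because some array showed their probe clearly over its background. Sorted by role, 13 were placed at the G1/S transition, 7 are inhibitors or pocket proteins, 15 act in replication and 18 act in G2 and mitosis (G2/M).

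The cells were of E14.1, an embryonic stem (ES) cell line of the mouse, taken through endoderm towards liver. Day 0 was undifferentiated ES cells on gelatin, in a medium without serum that held N2, B27, BMP4 and LIF. Day 5 was definitive endoderm, made on collagen IV with activin A replacing both of those factors. Day 7 was early hepatic cells, which had a further 2 days with BMP4 and bFGF beside the activin A. The study chose these days to follow targets of the endoderm factor Foxa2, which it gives as absent on day 0. All cells came from the same line, no sort is described in the labels, and each day was measured on 1 single-colour Agilent array. There are no replicates, so no test was possible and the spread between cultures is unknown.

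In a dividing cell, D-type cyclins with Cdk4 or Cdk6, and then cyclin E with Cdk2, phosphorylate the pocket proteins Rb1, Rbl1 and Rbl2, which releases E2F factors to switch on replication genes. Origins are licensed when ORC, Cdc6 and Cdt1 load the MCM helicase, and cyclin A, cyclin B and Cdk1 later drive mitosis under the control of the spindle checkpoint. Mouse ES cells are known for a short G1 phase, for high cyclin E and CDK activity through much of the cycle, and for lengthening G1 when they differentiate.

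Values are normalised log2 signals, in which 0 is the 75th percentile of an array, and each difference is the later day minus the earlier one on that log2 scale. A difference of at least 1 (2-fold) was called higher or lower, provided that the brighter of both signals was well above background. Levels of different genes were not compared, because each probe has its own response. Between 70.9% and 71.7% of gene spots were well above background on each array, none was saturated, and all 53 genes were well above background on all 3 arrays. Probes spotted 10 times had a median SD of 0.0747 to 0.0790 within an array, which covers spot noise and not the difference between cultures.

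The labels were checked against marker genes. The 5 ES cell markers were all called lower on days 5 and 7 than on day 0, with Pou5f1 at 3.26 on day 0, 0.88 on day 5 and -0.88 on day 7. From day 5 to day 7, 4 of them were called lower again. Klf4 was instead called 7.56-fold higher, at 5.70, 0.19 and 3.11 on days 0, 5 and 7. All 5 endoderm markers were called higher on day 5 than on day 0, and Foxa2 read -4.22, 4.29 and 3.98 on days 0, 5 and 7. On day 7 all 5 were still called higher than on day 0. However, 3 of them (Cxcr4, Gsc and Cer1) were called lower on day 7 than on day 5, and Gsc read -3.86, 5.21 and 0.18. Of 5 hepatic markers, 3 were called higher on day 5 than on day 0, and 4 on day 7 than on day 0 (Afp reached 3.83 on day 7). Albumin (Alb), which defines hepatocytes, cleared the background on day 5 (-6.07) but not on day 0 or on day 7. Markers of mesenchyme also moved: 4 of 4 were called higher on day 7 than on day 5. Of 4 cardiac markers, 3 were called higher on day 5 than on day 0 (Tbx20, Myl7 and Hand2). On day 7, 3 were called higher than on day 0 and also than on day 5 (Tnnt2, Tbx20 and Hand2). Myl7 was called lower on day 7 than on day 5. The summed linear signal of the 4 was 5.73, 29.4 and 8.12 on days 0, 5 and 7, in units of the array's 75th percentile. That sum largely followed Myl7, which read 2.49, 4.86 and 2.70. The part of other cell types in the results below was not tested. In bulk RNA, fewer cells of a type and less RNA per cell cannot be told apart.

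Most cell cycle genes were lower after differentiation. On day 5, 27 of the 53 were called lower than on day 0 and 2 were called higher (Ccnd2 and Cdkn1b), whereas 16.1% of all genes compared were called lower and 16.4% higher. The median difference of the 53 was -1.07 (2.10-fold lower), against -0.11 for all genes compared. At a milder limit of 1.5-fold, 41 of the 53 were lower on day 5, beside 27.6% of all genes. The middle of the 53 values ran from -1.52 to -0.70 (quartiles), and the whole range was -4.35 to 2.76.

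Day 7 gave similar sizes. There, 28 of the 53 were called lower than on day 0 and 3 higher (Ccnd2, Ccne2 and Cdkn2b), beside 19.1% and 16.2% of all genes. The median was -1.03 (2.04-fold lower), against -0.19 for all genes. The array of day 0 serves in each of these comparisons, which makes them dependent on each other.

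Between day 5 and day 7 there was little movement. The median of the 53 on day 7 minus day 5 was 0.08, and none was called lower, against 8.38% of all genes. The 2 genes called higher were the inhibitors Cdkn2a and Cdkn2b, where 5.97% of all genes were called higher. Leaving both aside, the differences ran from -0.97 for cyclin D1 to 0.79 for cyclin D3, neither of which was called.

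Many of these genes are bright, so they were also set beside other genes above a brightness floor. The mean was taken over all arrays, so a high day 0 signal alone could let a gene pass. Brightness above the floor was not matched, so these shares are a description and no separate support. Of 4085 genes with a mean normalised signal of at least 2, 11.8% were called lower on day 5 than on day 0, with a median of -0.22. Among the 29 cell cycle genes that bright, 16 were called lower (55.2%), with a median of -1.09. On day 7 the figures against day 0 were 18 of 29 (62.1%) and -1.04 for the cell cycle genes, and 13.7% and -0.32 for all bright genes.

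**Figure D1:**
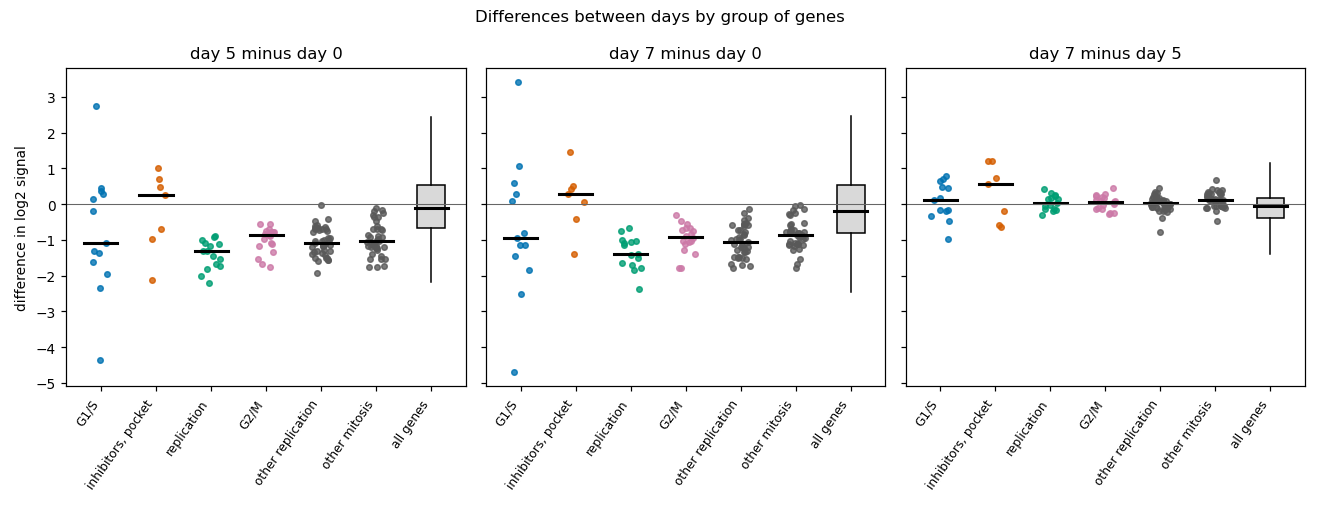
Difference in log2 signal by group of genes for day 5 minus day 0, day 7 minus day 0 and day 7 minus day 5; each point is 1 gene and each black bar a group median. The box for all genes compared shows quartiles with whiskers at the 5th and 95th percentiles. All 15 replication points and all 18 G2/M points lie below 0 in both comparisons with day 0. Another Cdc6 probe, not shown, lies above 0, and Mki67 on day 7 turns under quantile normalization. The replication and G2/M medians are 0.03 and 0.07 between day 5 and day 7.

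The groups differed in how uniformly they moved. On the probes used, all 15 replication genes were below 0 against day 0. Of these, 12 were called lower on day 5 and 13 on day 7, with medians of -1.32 and -1.40. Another Cdc6 probe lay above 0, at 0.06 on day 5 and 0.43 on day 7. All 18 G2/M genes were also below 0 on both days, though Mki67 turned on day 7 under quantile normalization: 7 were called lower on day 5 and 8 on day 7, with medians of -0.87 and -0.92. The G1/S genes were mixed, with 7 called lower and 1 higher on day 5, and 6 lower and 2 higher on day 7. The 7 inhibitors and pocket proteins had medians of 0.26 on day 5 and 0.28 on day 7, with 1 gene called in each direction on each day, which is near the share over all genes. That share was 16.1% lower and 16.4% higher on day 5, and 19.1% lower and 16.2% higher on day 7. Differences between groups were not tested.

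The counts rest partly on how the arrays were scaled, because many genes lay close to the 2-fold limit: 14 of the 53 were between 1.5- and 2-fold lower on day 5. With quantile normalization in place of the 75th percentile, 7 rather than 12 of the replication genes were called lower on day 5, and 8 rather than 13 on day 7. After centring on the median of all genes, an alternative chosen after seeing the data, 17 of all 53 were called lower on day 7. No called difference turned round under the alternatives tried.

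**Figure D2:**
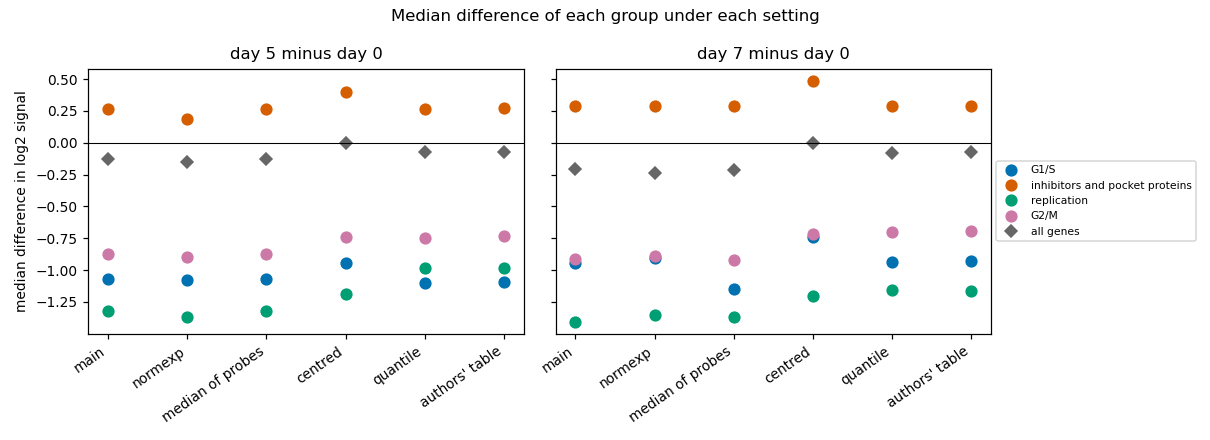
Median difference in log2 signal of each group and of all genes measured on both arrays, for day 5 minus day 0 and day 7 minus day 0, under 6 ways of processing. The G1/S, replication and G2/M medians stay below the median of all genes in each, and the inhibitor and pocket protein median stays above it.

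Promoters of the replication and G2/M genes held different short sequences. Windows from 250 bases before to 50 bases after each start site, from RefSeq (build GRCm38.p6), were available for 44 of the 53 genes, in 50 windows. They were searched on both strands for E2F letters (TTTCCCGC, TTTGGCGC, TTTCGCGC or TTTGCCGC), for the cell cycle homology region, CHR, as TTTGAA and in a second form of that element as TTCGAA, and for CCAAT. The second CHR form reads the same on both strands, and no motif of one kind contains one of another. E2F letters stood in 7 of 14 windows of replication genes, 4 of 13 of G1/S genes and 1 of 15 of G2/M genes, against 2.26% of all 32851 windows. CHR letters stood in 2 of 14 replication windows and 12 of 15 G2/M windows, against 19.2% of all windows. CCAAT stood in 11 of the 14 and 13 of the 15, against 37.4%. Among genes outside the 53, E2F letters were in 10 of 41 windows of other replication genes, and CHR letters in 26 of 37 windows of other mitosis genes (70.3%). CCAAT stood in 26 of those 37, but in only 17 of 41 windows of other replication genes (41.5%), close to the share over all windows. These matches describe letters only and do not show a bound site.

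The windows below are shown because they belong to the 2 replication genes holding E2F letters (Orc1 and Cdt1) and the 2 G2/M genes holding CHR letters (Ccnf and Bub1b) that had the lowest day 5 differences, with Cdk1 as the G2/M gene that holds both. Each is written 5′ to 3′ along its gene, and capitals mark the E2F or CHR letters. Orc1 lies at chr4:108579204-108579503 (+ strand) and Cdt1 at chr8:122567765-122568064 (+ strand). Ccnf lies at chr17:24251360-24251659 (- strand), Bub1b at chr2:118597961-118598260 (+ strand) and Cdk1 at chr10:69352863-69353162 (- strand).
Orc1: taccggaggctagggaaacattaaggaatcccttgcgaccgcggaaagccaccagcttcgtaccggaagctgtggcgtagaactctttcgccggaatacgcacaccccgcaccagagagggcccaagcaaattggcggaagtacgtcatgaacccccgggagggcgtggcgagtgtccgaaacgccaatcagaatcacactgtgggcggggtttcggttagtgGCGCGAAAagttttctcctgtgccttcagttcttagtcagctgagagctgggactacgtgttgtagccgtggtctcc
Cdt1: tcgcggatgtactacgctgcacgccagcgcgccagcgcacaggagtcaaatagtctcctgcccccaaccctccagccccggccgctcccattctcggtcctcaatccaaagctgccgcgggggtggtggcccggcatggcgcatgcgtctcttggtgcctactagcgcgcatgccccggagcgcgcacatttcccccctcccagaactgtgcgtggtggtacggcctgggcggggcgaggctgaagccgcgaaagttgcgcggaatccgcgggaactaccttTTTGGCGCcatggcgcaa
Ccnf: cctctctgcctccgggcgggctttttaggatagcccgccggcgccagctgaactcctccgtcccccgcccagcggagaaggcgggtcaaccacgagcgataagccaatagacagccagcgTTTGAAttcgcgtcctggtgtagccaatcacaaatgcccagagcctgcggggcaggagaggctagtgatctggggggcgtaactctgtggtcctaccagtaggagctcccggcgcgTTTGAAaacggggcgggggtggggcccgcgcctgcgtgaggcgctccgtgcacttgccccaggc
Bub1b: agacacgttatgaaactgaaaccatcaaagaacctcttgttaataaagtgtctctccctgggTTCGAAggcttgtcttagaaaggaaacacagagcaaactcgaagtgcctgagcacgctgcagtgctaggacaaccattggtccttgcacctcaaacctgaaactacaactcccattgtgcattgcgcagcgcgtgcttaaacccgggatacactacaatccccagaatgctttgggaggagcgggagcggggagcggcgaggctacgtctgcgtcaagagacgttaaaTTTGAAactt
Cdk1: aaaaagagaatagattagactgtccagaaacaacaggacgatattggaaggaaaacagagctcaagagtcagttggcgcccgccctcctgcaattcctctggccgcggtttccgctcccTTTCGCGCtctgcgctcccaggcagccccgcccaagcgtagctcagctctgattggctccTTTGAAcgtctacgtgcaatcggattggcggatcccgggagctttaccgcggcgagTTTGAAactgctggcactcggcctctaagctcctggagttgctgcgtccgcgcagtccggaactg

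Counting the start site as position 1, the E2F letters begin at -27 in Orc1, as GCGCGAAA (the other strand of TTTCGCGC), and at 33 in Cdt1. The CHR letters begin at -130 and -14 in Ccnf and at -188 and 41 in Bub1b. In Cdk1, TTTCGCGC begins at -131 and TTTGAA at -71 and -15. The day 5 median was -1.38 for 10 genes with E2F letters alone and -1.0 for 14 with CHR letters alone. It was -0.72 for 4 genes with both and -1.20 for 16 with neither. These classes mix genes of different roles, and differences between them were not tested.

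**Figure D3:**
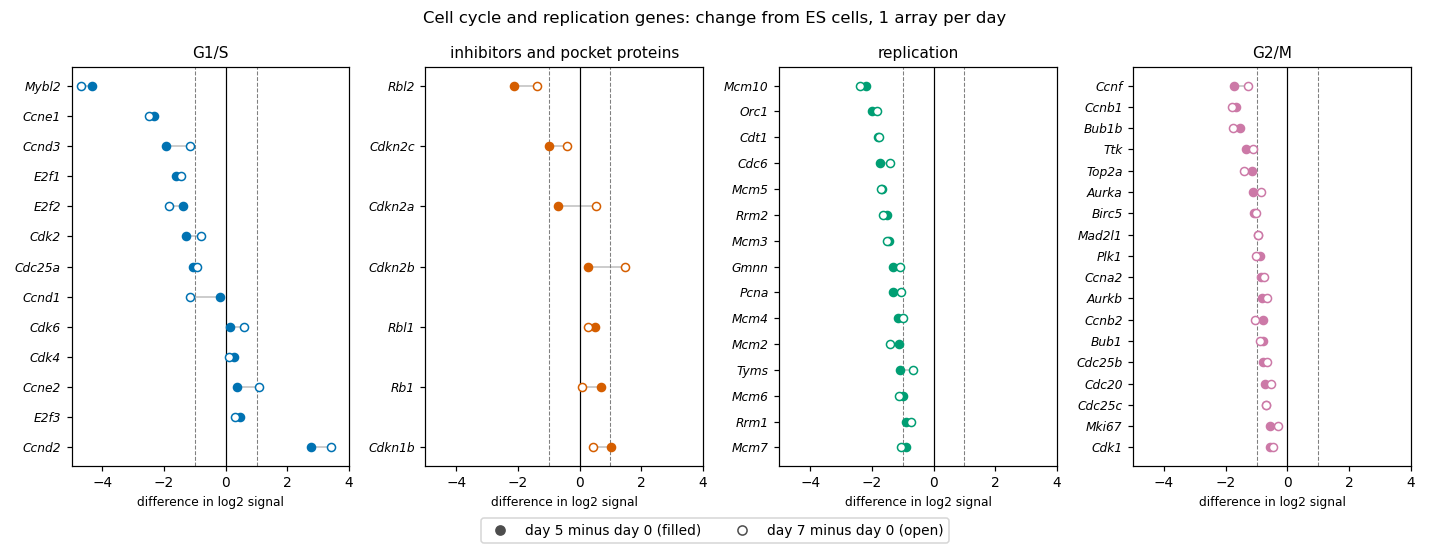
Difference in log2 signal for each of the 53 genes, day 5 minus day 0 (filled) and day 7 minus day 0 (open), in panels for G1/S, inhibitors and pocket proteins, replication and G2/M; dashed lines mark the 2-fold limits. The G1/S panel runs from Mybl2 (-4.35 and -4.69) to Ccnd2 (2.76 and 3.42). On the probe used, every replication and G2/M gene lies left of 0, Mki67 on day 7 only without quantile normalization.

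The 3 D-type cyclins, which carry growth signals to Cdk4 and Cdk6, moved in different directions. Ccnd2 (cyclin D2) read -0.21 on day 0, 2.55 on day 5 and 3.21 on day 7, so that it was 6.76-fold higher on day 5 and 10.7-fold higher on day 7 than on day 0. Its probe lies at chr6:127079694-127079753 (mm9, - strand), and its other probes gave differences of 2.71 and 2.68 on day 5, and 3.40 and 3.16 on day 7. Ccnd2 was the most increased of the 53 in both comparisons with day 0.

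Ccnd3 (cyclin D3) read 3.28 on day 0, 1.33 on day 5 and 2.13 on day 7, and was 3.86-fold lower on day 5 and 2.22-fold lower on day 7 than on day 0. Ccnd1 (cyclin D1), measured on 10 spots per array, averaged 0.96 ± 0.0569 on day 0, 0.78 ± 0.0953 on day 5 and -0.19 ± 0.0621 on day 7 (SD over spots of 1 array). Its day 5 value lay close to day 0, and it was 2.22-fold lower on day 7. The day 7 calls of Ccnd1 and Ccnd3 were lost after centring on all genes, and that of Ccnd3 also under quantile normalization. Their partner Cdk4 stayed near its day 0 signal, at 3.59, 3.86 and 3.68 on days 0, 5 and 7.

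Cdk6 gave no single answer. The probe used here read -0.01, 0.13 and 0.60 on days 0, 5 and 7, whereas another probe that was well above background on all arrays was lower by -2.36 on day 5 and -2.30 on day 7. The third Cdk6 probe was dim on at least 1 array, so the direction for this kinase is uncertain.

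The 2 E-type cyclins, which activate Cdk2 for entry into S phase, also parted. Ccne1 (cyclin E1) read 5.69 on day 0, 3.35 on day 5 and 3.19 on day 7, and was 5.06-fold lower on day 5 and 5.68-fold lower on day 7 than on day 0. A further Ccne1 probe gave -2.51 and -2.66. Ccne2 (cyclin E2) read -1.04, -0.68 and 0.04 on the same days, and was called higher on day 7 (2.11-fold). That call was lost under the normexp background correction. Their kinase Cdk2 read -1.91, -3.22 and -2.73, a called decrease on day 5 (2.46-fold) and 1.75-fold lower, uncalled, on day 7. A second Cdk2 probe gave smaller differences of -0.78 and -0.66, short of the limit. Cdc25a, the phosphatase that activates Cdk2, read -0.24, -1.31 and -1.18, and was 2.10-fold lower on day 5 and 1.92-fold lower on day 7. The day 5 call was lost after centring on all genes.

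Mybl2 (B-Myb) was listed with the G1/S genes here, although it is a transcription factor of the MuvB complex that acts on G2/M genes. Mybl2 was the most decreased of the 53. It read 5.51 on day 0, 1.17 on day 5 and 0.82 on day 7, at a probe in chr2:162909169-162909226 (mm9, + strand). That is 20.3-fold lower on day 5 and 25.8-fold lower on day 7 than on day 0. Between day 5 and day 7 the difference was only 1.27-fold.

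The activator E2F genes split as well. E2f1 read 0.30 on day 0, -1.32 on day 5 and -1.16 on day 7, and was 3.08-fold lower on day 5 and 2.75-fold lower on day 7. E2f2 read 1.86, 0.49 and 0.02, and was 2.59-fold and 3.57-fold lower on those days. E2f3 was not called, at 2.64, 3.09 and 2.93, and its direction is uncertain: the probe used gave 0.45 on day 5, while its other probes gave -0.25 and -0.13.

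**Figure D4:**
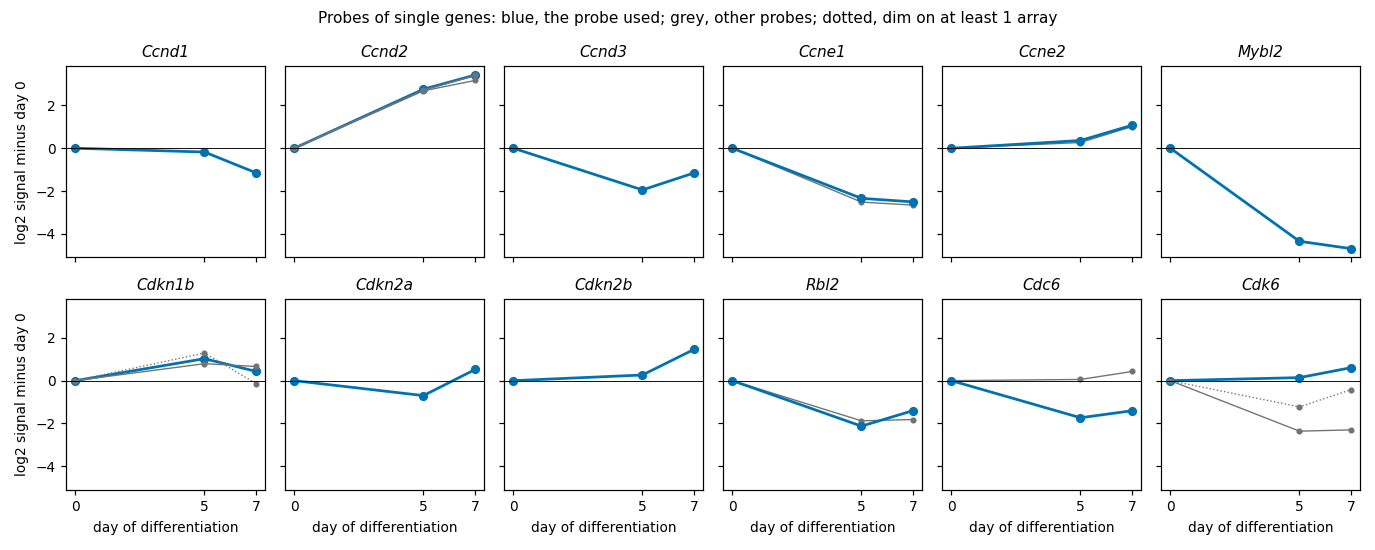
Log2 signal minus day 0 at days 0, 5 and 7 for 12 genes, with the probe used in blue, other probes in grey, and dotted lines for probes dim on at least 1 array. The 3 Ccnd2 probes run together up to 3.42, Mybl2 drops to -4.69, and the probes of Cdc6 and Cdk6 separate.

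CDK inhibitors and pocket proteins restrain the G1/S transition. Cdkn2b (p15), an inhibitor of Cdk4 and Cdk6, read -0.31 on day 0, -0.04 on day 5 and 1.15 on day 7, which was 2.29-fold higher on day 7 than on day 5 and 2.75-fold higher than on day 0. Cdkn2a, the locus of p16 and p19Arf, averaged -2.96 ± 0.0566, -3.66 ± 0.133 and -2.44 ± 0.0706 on days 0, 5 and 7 (SD over spots). It was 2.33-fold higher on day 7 than on day 5, but 1.44-fold higher than on day 0, which was not called, and the call against day 5 was lost with normexp. Both lie in the same region of chromosome 4, with probes at chr4:88920545-88920604 (Cdkn2a) and chr4:88952437-88952496 (Cdkn2b) in mm9. The summed linear signal of the 4 mesenchyme markers was 14.0 on day 7, against 0.231 on day 5 and 0.366 on day 0, in units of the array's 75th percentile, and all 4 were well above background on all arrays. Their part in the Cdkn2a and Cdkn2b values was not tested.

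Cdkn1b (p27), which inhibits cyclin E with Cdk2, read 0.49, 1.52 and 0.92 on days 0, 5 and 7. Its day 5 difference was at the limit (2.04-fold), and it was not called with normexp or with the median over its probes. Cdkn2c (p18) read -2.96, -3.94 and -3.38, which was 1.97-fold lower on day 5 and 1.34-fold lower on day 7 than on day 0. The one pocket protein that was called was Rbl2 (p130), at -1.85, -3.98 and -3.25, or 4.36-fold lower on day 5 and 2.64-fold lower on day 7. A second Rbl2 probe gave -1.88 and -1.81. Rb1 read 0.65, 1.34 and 0.71, and Rbl1 (p107) read -0.67, -0.19 and -0.39, none of them a called difference. The other Rb1 probe gave 0.65 on day 5 and -0.38 on day 7, so that the day 7 direction of Rb1 turned with the median over probes (-0.16).

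Genes of origin licensing, the first step of replication, were lower on both later days. Orc1, a subunit of the origin recognition complex (named Orc1l in the files), read 2.46 on day 0, 0.46 on day 5 and 0.62 on day 7. It was 3.99-fold lower on day 5 and 3.58-fold lower on day 7 than on day 0. Cdt1, which loads MCM rings, read 5.15, 3.34 and 3.37, and was 3.51-fold and 3.44-fold lower. Gmnn (geminin), which binds and blocks Cdt1, read 5.54, 4.21 and 4.44, so that the loader and its inhibitor were both lower. The loading factor Cdc6 read 2.48, 0.75 and 1.07 on the probe used (3.32-fold and 2.65-fold lower), but its other probe differed by 0.06 and 0.43. The Cdc6 call was therefore lost with the median over probes.

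The 6 subunits of the MCM helicase were all lower, with medians of -1.14 on day 5 and -1.28 on day 7. On day 5, 4 of the 6 were called, and on day 7 all 6, beside 16.1% and 19.1% of all genes called lower. However, Mcm4, Mcm6 and Mcm7 lost their day 7 call under quantile normalization, in the authors' table and after centring. With normexp, Mcm4 and Mcm7 lost it as well. Mcm5 had the largest difference, at 4.76, 3.10 and 3.07 on days 0, 5 and 7 (3.17-fold and 3.23-fold lower). Mcm7 had the smallest on day 5, at 6.34, 5.46 and 5.30 (1.84-fold and 2.06-fold lower). The other 4 had day 5 differences between those: Mcm3 read 6.01, 4.56 and 4.51, and Mcm2 read 4.25, 3.14 and 2.83. Mcm4 read 5.75, 4.59 and 4.75, and Mcm6 read 6.81, 5.82 and 5.67. Mcm10, a fork factor that is not part of the ring, fell furthest of the replication genes, to 2.69 on day 5 and 2.51 on day 7, against 4.89 on day 0 (4.58-fold and 5.20-fold lower).

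Genes of the fork and of nucleotide supply were lower too. Pcna, the sliding clamp, was measured on 10 spots and averaged 6.53 ± 0.0579, 5.22 ± 0.0934 and 5.48 ± 0.0492 on days 0, 5 and 7, which was 2.49-fold lower on day 5 and 2.08-fold lower on day 7. The ribonucleotide reductase subunits make deoxynucleotides: Rrm2 read 4.11, 2.59 and 2.46 (2.87-fold and 3.13-fold lower), and Rrm1 read 4.67, 3.76 and 3.93 (1.87-fold and 1.67-fold lower, uncalled). Tyms, which makes thymidylate, read 5.14, 4.06 and 4.49, and its difference was called on day 5 (2.12-fold) and not on day 7 (1.57-fold). Under quantile normalization the calls of Pcna, Gmnn, Mcm4, Mcm2 and Tyms on day 5 were lost, as were those of Pcna and Gmnn on day 7.

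Among the mitotic cyclins, Ccnb1 (cyclin B1) and Ccnf (cyclin F) were lower by the most. Ccnb1 read 4.29 on day 0, 2.62 on day 5 and 2.50 on day 7, or 3.18-fold and 3.46-fold lower, and its other probes gave smaller differences of -1.21 and -0.90 on day 5. Ccnf, the substrate receptor of an SCF ubiquitin ligase, read 1.10, -0.65 and -0.19, or 3.36-fold and 2.44-fold lower. Ccnb2 (cyclin B2) read 5.24, 4.45 and 4.19 and was called only on day 7 (2.08-fold), whereas Ccna2 (cyclin A2) read 4.51, 3.65 and 3.75 and was called on neither. The mitotic kinase Cdk1 (named Cdc2a in the files) read 2.01, 1.45 and 1.53, which was 1.47-fold and 1.39-fold lower and not called. Its activating phosphatases were likewise uncalled: Cdc25b read 0.73, -0.06 and 0.07, and Cdc25c read -0.77, -1.46 and -1.48.

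Spindle checkpoint genes were lower to unequal degrees. Bub1b (BubR1) read 2.70, 1.17 and 0.93 on days 0, 5 and 7 (2.89-fold and 3.42-fold lower), and the kinase Ttk (Mps1) read 0.00, -1.34 and -1.12 (2.53-fold and 2.18-fold lower, the day 7 call lost after centring). Mad2l1 (Mad2) was just short of the limit at 1.95-fold and 1.93-fold lower, with 2.70, 1.74 and 1.76, while its other probe gave -1.19 and -1.04, past the limit. With the median over probes Mad2l1 was called lower on day 5. Bub1 read 3.35, 2.56 and 2.46, and Cdc20, the target of the checkpoint and an activator of the anaphase-promoting complex, read 6.32, 5.58 and 5.78, and neither was called.

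Of the mitotic kinases and their partners, Aurka (Aurora A, spindle poles) read 4.63, 3.50 and 3.78 and was called on day 5 (2.18-fold lower). Plk1 (Polo-like kinase) read 4.27, 3.39 and 3.24 and was called on day 7 (2.04-fold lower). Birc5 (survivin), a subunit of the chromosomal passenger complex, read 5.64, 4.55 and 4.62 and was called on both days at 2.13-fold and 2.04-fold, while its kinase Aurkb read 2.57, 1.75 and 1.91 and was not called. These 4 genes ran from 1.59-fold to 2.18-fold lower over both days. The calls of Aurka, Plk1 and Birc5, and that of Ccnb2, were lost under quantile normalization.

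Top2a, which untangles replicated chromosomes, read 2.84, 1.67 and 1.44, or 2.24-fold and 2.64-fold lower. Mki67, the gene of the proliferation marker Ki-67, differed little, at 4.77, 4.21 and 4.48 on days 0, 5 and 7 (1.48-fold and 1.23-fold lower, uncalled). On day 7 its direction depended on scaling, with 0.05 under quantile normalization and 0.04 in the authors' deposited table. It is the only one of the replication and G2/M genes to change sign against day 0 under any scaling tried.

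Other genes of the same pathways moved the same way as the replication and G2/M groups. Their lists do not overlap the 53, but were chosen with earlier results of these data known, so they are no independent support. Of 41 other replication genes, 24 were called lower on day 5 and 23 on day 7 against day 0, none was called higher, and the medians were -1.07 and -1.04. Of all genes, 16.1% were called lower on day 5 and 19.1% on day 7, and 16.4% and 16.2% higher. The largest decreases on day 5 were of Rpa2, a subunit of the single-strand binding protein RPA (3.82-fold), Tipin, a fork protection factor (3.00-fold), and Pola1, the catalytic subunit of DNA polymerase alpha (2.96-fold). On day 7 they were of Rpa2 again (-1.79), the clamp loader subunit Rfc5 (3.29-fold) and the GINS subunit Gins1 (3.27-fold).

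Of 40 other mitosis genes, 22 were called lower on day 5 and 14 on day 7, and none higher, with medians of -1.04 and -0.85, beside 16.1% and 19.1% of all genes called lower on those days. Anln (anillin, cytokinesis), Kif18a (a kinesin of chromosome alignment) and Espl1 (separase) led on both days, at 3.41-, 3.39- and 3.32-fold lower on day 5 and 3.44-, 3.18- and 2.91-fold lower on day 7.

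Other cell cycle regulators were less uniform. Of 31 measured, 3 were called higher and 8 lower on day 5 than on day 0, and 4 higher and 8 lower on day 7, with medians of -0.59 and -0.56. All genes had 16.4% higher and 16.1% lower on day 5, and 16.2% and 19.1% on day 7, so the counts of higher genes were no larger than the share over all genes. The CDK inhibitor Cdkn1a (p21) read 0.97, 2.36 and 2.37 on days 0, 5 and 7, or 2.63-fold higher on day 5. Cdkn1c (p57), another inhibitor of the same family, read 1.52, 1.35 and 3.49, and was 4.41-fold higher on day 7 than on day 5. Ccng2 (cyclin G2), linked to cell cycle arrest, read 0.41, 2.30 and 2.45, or 3.71-fold and 4.10-fold higher than on day 0.

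Genes called lower in that list included Fbxo5 (Emi1), an inhibitor of the anaphase-promoting complex (3.63-fold on day 5), the repressor E2f8 (3.45-fold on day 5) and the checkpoint kinase Chek2 (2.67-fold on day 7). Cyclin A1 (Ccna1) was 3.27-fold lower on day 5 and 6.55-fold lower on day 7. Of the Myc family, Mycl read -0.89, 2.36 and 0.64 on days 0, 5 and 7, Myc read 1.49, 1.85 and 0.20, and Mycn read 5.41, 4.0 and 4.97. Mycl was 9.53-fold higher on day 5 than on day 0 and 3.29-fold lower on day 7 than on day 5, and Myc was 3.16-fold lower on day 7 than on day 5. Mycn, named here after its values were seen to complete the family, was 2.65-fold lower on day 5 than on day 0 and not called on day 7.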

How the data were processed

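Total RNA was measured on 3 Agilent arrays, 1 per day. Per the file headers, the authors extracted the scans with Agilent Feature Extraction 10.5.1.1, and the deposited intensity values are spot signals on a linear scale, with probe positions in mm9 (NCBI37). The authors' deposited table holds log2 values with equal distributions across arrays.

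Here the processed intensity was taken to log2 and the array's 75th percentile was subtracted. Outlier spots (104 to 149 an array) and control spots were left out, and spots of 1 probe were averaged. Of 41174 probes, 24844 were named through RefSeq accessions, 6045 by symbol, and 10285 kept the file's name. A gene was represented by the probe well above background on most arrays, then the brightest. Summaries used Python 3.11.15 with pandas 2.3.3, and normexp used limma 3.58.1 in R 4.3.3. The calling step was checked on simulated data.

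All 53 genes are named. Of each further list, up to 3 genes with the largest called difference measured on both arrays are named in each direction, and check markers whatever their values. The genes and lists were chosen with earlier results of these data known. Alternatives were normexp, quantile normalization, the authors' table, 2 filters on dim probes, the median over probes and, added after seeing the data, centring on all genes. With 1 array a day there was no test, and the number of arrays limits the precision.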

Additional observations from a re-analysis of the deposited data

How the results depend on the processing

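No paired analysis was possible because each day had 1 array and no result comes from a test. For the same reason no array could be left out. The 7 alternatives turned no called difference of the 53 genes round. Both filters on dim probes could not change a call, because all 53 genes were well above background on all arrays. The median on day 5 minus day 0 was -0.82 under quantile normalization and in the authors' table and -0.94 after centring, against -1.07 as reported. On day 7 minus day 0 it was -0.71 under quantile normalization and in the authors' table and -0.82 after centring, against -1.03. Of 29 genes called on day 5 against day 0, 22 kept their call under quantile normalization and in the authors' table, 24 after centring, 27 with the median over probes and 28 with normexp. Of 31 called on day 7 against day 0, the numbers kept were 22, 22, 20, 30 and 27. After centring, 17 genes were called lower on day 7, against 28. The count higher on day 5 was 1 with the median over probes and with normexp, against 2, and the count higher on day 7 minus day 5 was 1 with normexp, against 2.

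Quantile normalization gave a median of -0.08 on day 7 minus day 0 over the genes measured on both arrays, against -0.20 over such genes with the 75th percentile. Over all 21653 genes compared, it put 17.7% higher and 16.5% lower, where 16.2% and 19.1% were reported. Normexp was fitted without 5 spots of day 0 and 1 of day 7 whose local background far exceeded their signal. Uncalled genes whose sign turned against day 0 with the median over probes were Cdk6 (-2.36 on day 5 and -2.30 on day 7, then called lower), E2f3 (-0.19 and -0.21) and Rb1 (-0.16 on day 7). The cause was not tested. Spot noise, with a median SD of 0.0747 to 0.0790 within an array and larger values for single probes, is the only error measured. Differences near the 2-fold limit cannot be placed on either side of it with these arrays.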

Other observations

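Some genes of the replication and mitosis lists beyond the 53 stayed close to their day 0 signal, and are named here after their values were seen. Rpa3, the smallest RPA subunit, read 2.89, 2.86 and 2.74 on days 0, 5 and 7, while Rpa2 of the same complex read 2.86, 0.92 and 1.07. Foxm1, a transcription factor of G2/M genes, read 1.87, 1.63 and 1.72, and Cks1b, a CDK-binding protein, read 4.99, 4.82 and 4.72. The securin gene Pttg1 read 4.37, 4.18 and 4.12, whereas Espl1, whose product securin inhibits, read 2.32, 0.59 and 0.78.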
